A study of Mus musculus with 8 samples.

Results

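The 10 genes described here are the mouse major histocompatibility complex (MHC) class II genes that present peptides to CD4+ T cells, their helpers, and Ciita, which switches them on. They were taken by symbol: the classical chains H2-Aa, H2-Ab1 and H2-Eb1, the invariant chain Cd74, the peptide editors H2-DMa, H2-DMb1 and H2-DMb2, their inhibitors H2-Oa and H2-Ob, and Ciita. All 10 were found among the 15283 genes of the bulk table and among the 22578 genes of the table of nuclei.

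The livers came from Tgfbr1 MKO mice (flox/flox; LysMcre) and from control mice (flox/flox), and mice of both genotypes had been fed a MASH diet, a model of metabolic dysfunction-associated steatohepatitis, for 30 weeks. Both genotypes thus carry floxed alleles of Tgfbr1, the type I receptor for TGF-beta, and the MKO mice alone carry LysMcre, a Cre recombinase driven from the myeloid Lyz2 locus that is active mainly in macrophages and neutrophils. The labels give neither the age nor the strain of the mice. Bulk RNA was sequenced from 3 MKO and 3 control livers, and single nuclei from 1 pool of 3 livers per genotype, summarised by the authors over 13 clusters. The comparison asks what removal of the receptor from LysM-expressing cells does to the steatohepatitic liver.

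Class II molecules are pairs of an alpha and a beta chain that are assembled with the invariant chain, loaded with peptide in endosomes and displayed at the cell surface. In the liver, Kupffer cells, recruited macrophages, dendritic cells and B cells carry them, and interferon-gamma can induce them in other cells. Ciita does not bind DNA itself: it is recruited by RFX and NF-Y proteins that sit on an X box and a Y box just upstream of each class II gene.

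The promoters are shown because Ciita reaches these genes through the X and Y boxes. RefSeq promoter sequences (GRCm38.p6, 250 bases before to 50 bases after a transcription start) were matched for 7 of the 10 genes, H2-Aa, H2-Eb1, H2-DMa, H2-DMb1, H2-DMb2, H2-Oa and H2-Ob; none was matched for H2-Ab1, Cd74 and Ciita. Each stretch below is 82 bases of the coding strand, 5′ to 3′, with the letters that match the X core (GNAACNNNTG), or the part of it that is present, and the Y core (ATTGG) in capitals.
H2-Eb1: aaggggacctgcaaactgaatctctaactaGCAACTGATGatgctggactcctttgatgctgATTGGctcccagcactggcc
H2-DMb1: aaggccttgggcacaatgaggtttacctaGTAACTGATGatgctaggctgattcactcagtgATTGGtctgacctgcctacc
H2-Ob: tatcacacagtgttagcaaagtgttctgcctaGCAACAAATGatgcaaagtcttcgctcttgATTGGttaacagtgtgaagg
H2-DMb2: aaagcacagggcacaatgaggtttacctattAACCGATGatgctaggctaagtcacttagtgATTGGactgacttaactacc
H2-Aa: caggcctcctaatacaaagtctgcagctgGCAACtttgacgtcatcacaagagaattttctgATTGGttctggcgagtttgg
H2-Oa: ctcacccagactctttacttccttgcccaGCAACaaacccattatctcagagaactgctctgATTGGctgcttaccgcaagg

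These stretches lie at chr17:34305746-34305827 for H2-Eb1, chr17:34153068-34153149 for H2-DMb1, chr17:34238786-34238867 for H2-Ob, chr17:34145097-34145178 for H2-DMb2, chr17:34287852-34287933 on the minus strand for H2-Aa and chr17:34092274-34092355 for H2-Oa, the others on the plus strand. The Y core was found, on either strand, in a promoter of 7 of the 7 matched genes, against 37.4% of all 32851 RefSeq promoters. The full X core followed by a Y core 10 to 35 bases on was found in H2-Eb1, H2-DMb1 and H2-Ob, against 0.295% of all promoters. H2-DMb2 has the X core without its first base (AACNNNTG), a form chosen after the promoters were seen, which with a Y core occurs in 0.98% of promoters. H2-Aa and H2-Oa hold only the first 5 letters of the X core (GNAAC) before the Y core, a form also chosen after the promoters were seen and present in 4.19%. H2-DMa has 2 promoters in the RefSeq table, of which 1 holds a Y core and neither holds any of these X forms before it, so no stretch of it is shown. Between the last matched X letter and the Y core lie 22 bases in H2-Eb1, 23 in H2-DMb1 and H2-DMb2, 20 in H2-Ob, and 28 in H2-Aa and H2-Oa. In H2-Aa and H2-Oa the match ends after the first 5 letters of the X core, so their gap is not comparable with the others. The stretches of H2-DMb1 and H2-DMb2 share 69 of 82 bases (84.1%), while the next most similar pair, H2-Oa and H2-Aa, shares 34 (41.5%).

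The bulk libraries held 17448117 to 23986319 recovered reads in MKO livers and 20638906 to 23673147 in control livers. Genotype separated along the first principal component (36.4% of the variance), and MKO 1 had a score of 48.5 on the second (20.8%), where the other 5 libraries had -23.0 to 4.67. The targeted gene Tgfbr1 (+ strand of chromosome 4, 47353222 to 47414931) had normalised read counts of 560, 857 and 735 in MKO livers, against 737, 810 and 777 in control livers, and these values overlap (limma log2 fold change -0.13 ± 0.16, adjusted p = 0.816; SE). The floxed exon is not named in the labels, so counts summed over the gene are a weak check of its deletion, and whole liver holds Tgfbr1 RNA of cells outside the reach of the Cre. In the macrophage-like nuclei Tgfbr1 stood at 4.87 in the MKO pool, against 13.5 in the control pool.

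In bulk liver 6 of the 10 genes rose in MKO livers, by 2.15-fold to 2.39-fold in their means: the 3 classical chains, the invariant chain, and the DM chains H2-DMa and H2-DMb1. Ciita was higher in every MKO liver than in any control liver but did not pass the test, and H2-DMb2, H2-Oa and H2-Ob overlapped between genotypes. A gene is said to have risen or fallen where limma gave a Benjamini-Hochberg adjusted p under 0.05 over all 15249 genes tested. By that rule 2.96% of all genes rose and 0.0853% fell. Of the 10 genes, 6 rose and 0 fell with limma, with edgeR (where 3.07% of all genes rose) and with DESeq2 (4.16%), and 7 had an unadjusted limma p under 0.05. The share of all genes under that unadjusted threshold was not counted, so such counts, here and below, have no background beside them. MKO values lay above all control values for 7 of the 10, against 10.4% of genes tested. The median log2 fold change was 1.09 over the 10 genes and -0.02 over all genes.

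**Figure D1:**
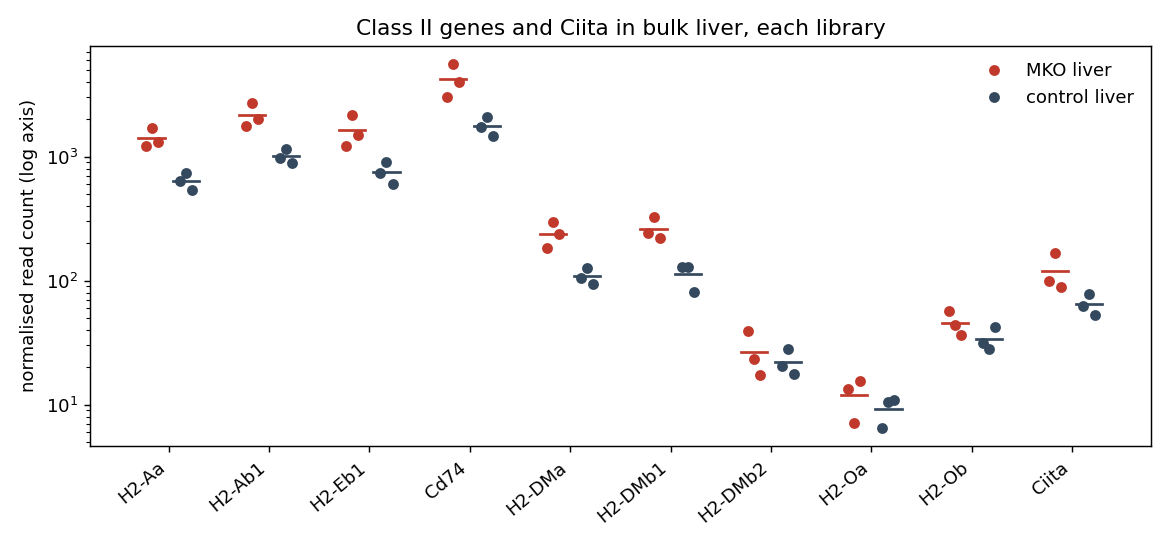
Normalised read counts (log axis) of the 10 genes in each bulk library, with 3 MKO livers to the left of 3 control livers for each gene and bars at the group means. For the first 6 genes and Ciita every MKO point lies above every control point, while H2-DMb2, H2-Oa and H2-Ob overlap.

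H2-Aa (chromosome 17, 34282744 to 34287823, - strand) encodes the alpha chain of the I-A molecule. Its normalised read counts were 1224, 1687 and 1307 in MKO livers, against 634, 732 and 542 in control livers. The lowest MKO liver was well above the highest control liver. The means were 1406 ± 247 in MKO and 636 ± 94.8 in control livers (SD, n = 3 each), 2.21-fold, and the log2 fold change was 1.14 ± 0.16 by limma (SE; adjusted p = 0.0073). Among the 10 genes this was the only call kept in all 6 fits that leave out 1 library (adjusted p 0.0129 to 0.0349).

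H2-Ab1 (chromosome 17, 34257689 to 34269419, + strand), the I-A beta chain, was read at 1751, 2710 and 1991 in MKO livers, against 974, 1152 and 879 in control livers. H2-Eb1 (chromosome 17, 34305867 to 34316674, + strand), the beta chain of the I-E molecule, had 1211, 2177 and 1491 in MKO livers, against 733, 910 and 600.2 in control livers. The groups of both genes were apart, and MKO 2 was the highest library for each. The log2 fold change was 1.09 ± 0.18 for H2-Ab1 (limma adjusted p = 0.0135) and 1.10 ± 0.23 for H2-Eb1 (limma adjusted p = 0.0393). The call for H2-Ab1 was lost without control 3 or MKO 3 (adjusted p up to 0.0541), and that for H2-Eb1 without any single library except MKO 1 (up to 0.126).

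Cd74 (chromosome 18, 60803848 to 60812652, + strand) encodes the invariant chain, which plugs the groove of new class II molecules and guides them to endosomes. Its values were 3037, 5560 and 3992 in MKO livers, against 1719, 2086 and 1453 in control livers. Per kilobase of transcript its mean was the highest of the 10 genes in both genotypes. The groups did not overlap (4196 ± 1274 in MKO and 1752 ± 318 in control livers, SD, n = 3 each; log2 fold change 1.23 ± 0.22, limma adjusted p = 0.0214). Leaving out control 1, control 3, MKO 2 or MKO 3 ended this call (adjusted p up to 0.0844).

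H2-DMa and H2-DMb1 form the DM editor, which removes the invariant chain remnant and selects stable peptides. H2-DMa (+ strand of chromosome 17, 34119541 to 34139101) had normalised counts of 182, 298 and 236 in MKO livers, against 105, 127 and 93.6 in control livers. H2-DMb1 (+ strand of chromosome 17, 34153072 to 34160230) had normalised counts of 240.4, 327 and 219 in MKO livers, against 128, 128 and 80.8 in control livers. Neither gene overlapped between the groups. They rose by log2 fold changes of 1.11 ± 0.21 for H2-DMa (limma adjusted p = 0.0270) and 1.22 ± 0.23 for H2-DMb1 (limma adjusted p = 0.0263). The call for H2-DMa was lost without any library except MKO 1, and that for H2-DMb1 without any except control 1 (adjusted p up to 0.115), and quantile normalisation ended both (0.0728 for H2-DMa and 0.0547 for H2-DMb1). H2-DMa shares 360 exon bases with Brd2 on the opposite strand, and the labels do not say whether counting used the strand, so reads of the 2 genes cannot be told apart there.

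H2-DMb2 (chromosome 17, 34143307 to 34151555, + strand) is the second DM beta chain gene, next to H2-DMb1. It was read at 39.1, 23.5 and 17.3 in MKO livers, against 20.6, 28.3 and 17.7 in control livers. The groups overlap widely and MKO 1 alone is high. The log2 fold change was 0.20 ± 0.36 (95% interval -0.63 to 1.03, limma adjusted p = 0.888), and -0.11 without MKO 1. H2-DMb2 over H2-DMb1, a ratio chosen after the values were seen and so given with no test, was 0.162, 0.0717 and 0.0793 in MKO livers, against 0.161, 0.221 and 0.2195 in control livers. The longest coding transcripts of H2-DMb1 and H2-DMb2 are 94.6% identical over 1219 aligned bases, with 361 of 1355 windows of 50 bases in H2-DMb1 found unchanged in H2-DMb2, so the split of reads between them is uncertain.

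H2-Oa and H2-Ob form the DO molecule, which holds DM in check and is known mainly from B cells and some dendritic cells. H2-Oa (+ strand of chromosome 17, 34092340 to 34095234) had normalised counts of 13.4, 7.14 and 15.4 in MKO livers, against 6.51, 10.5 and 10.8 in control livers. These rest on 7 to 16 reads per MKO liver and 6 to 11 per control liver, and 321 exon bases are shared with the antisense gene BC051537. H2-Ob (+ strand of chromosome 17, 34238903 to 34254414) had normalised counts of 57.4, 43.9 and 36.6 in MKO livers, against 31.5, 28.3 and 42.4 in control livers. Neither pair of groups was separate. The log2 fold changes were 0.30 ± 0.43 for H2-Oa (95% interval -0.68 to 1.29, limma adjusted p = 0.846) and 0.42 ± 0.27 for H2-Ob (-0.20 to 1.04, limma adjusted p = 0.624). Both intervals include a 2-fold rise.

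Ciita (chromosome 16, 10480059 to 10528418, + strand), the transactivator, was read at 98.9, 168 and 88.6 in MKO livers, against 61.9, 77.7 and 53.2 in control livers. Every MKO liver was above every control liver, and MKO 2 was by far the highest. The means were 119 ± 43.3 in MKO and 64.3 ± 12.4 in control livers (SD, n = 3 each). The log2 fold change of 0.83 ± 0.27 (95% interval 0.21 to 1.46) had an unadjusted limma p of 0.0150 and an adjusted p of 0.223. It was 0.55 without MKO 2. Recovered reads gave an adjusted p of 0.209 with edgeR and 0.104 with DESeq2, while the authors' deposited table lists 0.89 with an adjusted p of 0.0213. Ciita shares 329 exon bases with the antisense gene Dexi.

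**Figure D2:**
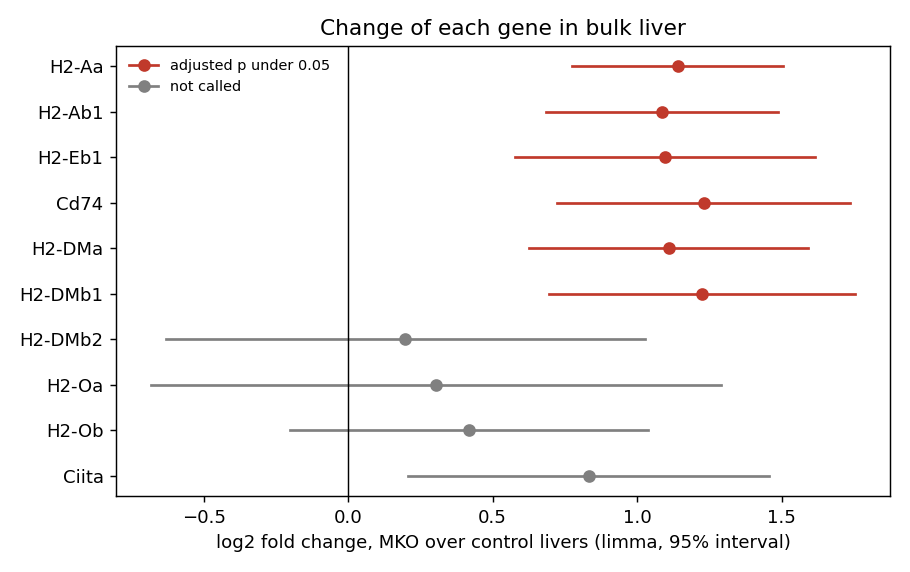
Log2 fold change of each gene, MKO over control livers, with its 95% interval from limma (n = 3 each); red marks an adjusted p under 0.05. The 6 genes in red lie between 1.09 and 1.23, Ciita has an interval above 0 without passing the adjusted threshold, and the intervals of H2-DMb2, H2-Oa and H2-Ob include 0.

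Per kilobase of the longest coding transcript, the mean level in MKO livers ran from 2976 for Cd74 through 1774 for H2-Ab1, 1246 for H2-Aa and 974 for H2-Eb1 to 187 for H2-DMb1 and 119 for H2-DMa, and it was 19.7 for Ciita, 17.9 for H2-DMb2, 17.2 for H2-Ob and 11 for H2-Oa. In control livers the same scale gave 1243 for Cd74, 826 for H2-Ab1, 564 for H2-Aa, 448 for H2-Eb1, 80 for H2-DMb1, 54.2 for H2-DMa, 10.7 for Ciita, 15 for H2-DMb2, 12.8 for H2-Ob and 8.53 for H2-Oa. The order from Cd74 down to H2-DMa was the same in both genotypes, and the 4 lowest genes lay close together. The 10 genes summed to 7854, 13002 and 9393 normalised reads in MKO livers, against 4414, 5279 and 3773 in control livers. Cd74 and the 3 classical chains made up 92.0% to 93.5% of every library's sum.

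Ratios between partner genes show whether they moved by unequal factors. Of 8 log2 ratios none separated the genotypes, and each had an adjusted p of 1 in an exact two-sided permutation test that cannot go below 0.1. H2-Ab1 over H2-Aa averaged 0.60 ± 0.08 in MKO and 0.66 ± 0.04 in control livers (SD, n = 3 each, log2). Cd74 over H2-Aa averaged 1.55 ± 0.21 in MKO and 1.46 ± 0.05 in control livers, and Ciita over H2-Aa -3.61 ± 0.28 in MKO and -3.31 ± 0.07 in control livers. The differences were -0.04 for H2-Eb1 over H2-Aa, -0.02 for H2-DMa over H2-Aa, 0.12 for H2-DMb1 over H2-DMa and 0.10 for H2-Ob over H2-Oa. The largest, -0.79 for H2-Oa over H2-DMa, averaged -4.36 ± 0.89 in MKO and -3.57 ± 0.45 in control livers (exact permutation p = 0.3).

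The genes for proteins that bind or act at class II promoters were tested in the same fit. Of 13 promoter factors, 0 rose and 0 fell with limma, edgeR and DESeq2, 2 had an unadjusted limma p under 0.05, and the median log2 fold change was 0.03. Rfx5, the DNA-binding subunit of RFX, was read at 358, 261 and 272 in MKO livers, against 287, 304 and 276 in control livers. Kat2b, a histone acetyltransferase with the highest mean count of the list, had a log2 fold change of -0.30 (limma adjusted p = 0.462). Nfya, an NF-Y subunit, was higher in every MKO liver (log2 fold change 0.47, limma adjusted p = 0.153), and Rfxap, another RFX subunit, was lower in every MKO liver (adjusted p = 0.371).

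Of 14 genes on the route from interferon-gamma to Ciita, 1 rose and 0 fell (median 0.43). This was Spi1, the myeloid and B cell transcription factor PU.1, at 332, 382 and 587 in MKO livers, against 119, 122 and 81.8 in control livers. Its groups were far apart (log2 fold change 1.98 ± 0.24, limma adjusted p = 0.005), and the call held without any single library. MKO values lay above control values for 7 of the 14, among them Irf1, an interferon-induced transcription factor (log2 fold change 0.46, limma adjusted p = 0.243), and Irf8, a factor of macrophages and dendritic cells (0.79, adjusted p = 0.097).

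Of 12 genes for endosomal processing, 2 rose (median 0.08). Ctss, the cathepsin that trims the invariant chain, was read at 1631, 2740 and 2732 in MKO livers, against 1182, 1106 and 834 in control livers. Ifi30, a thiol reductase that unfolds antigens, was read at 267, 251 and 362 in MKO livers, against 150, 122 and 74.9 in control livers. Both groups of values were separate, with log2 fold changes of 1.16 for Ctss and 1.38 for Ifi30 (limma adjusted p = 0.0268 for Ctss and 0.0273 for Ifi30). Of 6 genes for surface turnover 2 rose (median -0.14): Marchf1, the ligase that sends class II to degradation (1.34, adjusted p = 0.028), and Cd83, which opposes it (0.96, adjusted p = 0.022).

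Of 10 genes of co-stimulation and the T cell side 2 rose, and the median was 1.20. Pdcd1lg2, which encodes the PD-1 ligand PD-L2, was read at 15.9, 21.4 and 30.8 in MKO livers, against 1.09, 0 and 0 in control livers. Cd274, which encodes PD-L1, was read at 218, 254 and 303 in MKO livers, against 103, 106 and 56.2 in control livers. Both are ligands that restrain T cells, and their values did not overlap (log2 fold changes 4.16 and 1.58, limma adjusted p = 0.006 and 0.015; the fitted value of Pdcd1lg2 depends on the pseudocount). The stimulating ligands Cd80 (1.39, adjusted p = 0.072) and Cd86 (adjusted p = 0.187) were higher in every MKO liver without passing the test.

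Neighbours of the class II genes and the class I pathway were set beside them. Of 7 other genes of the class II region 0 rose and 0 fell with limma (3 at an unadjusted p under 0.05, 1 called by edgeR and 3 by DESeq2; median 0.29), and Brd2, a chromatin reader with the highest mean count, had a log2 fold change of -0.04. Of 15 class I genes 2 rose (median 0.42), with 15 of 15 positive and MKO livers above control livers for 10. Those that rose were H2-Q6 (0.94, limma adjusted p = 0.016) and H2-Q4 (0.64, adjusted p = 0.023), and how reads were split between these and other near-identical H2-Q genes is uncertain. Over the 7 lists 9 genes rose, and Spi1 was the only 1 whose call held without any single library. The number was 2 when MKO 2 was left out, 1 when MKO 3 was, 3 when control 2 was and 4 when control 3 was. Without MKO 3 the adjusted p of Pdcd1lg2 was 0.0569.

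Macrophage markers rose with class II, conventional dendritic cell markers rose in a minority and no B cell marker passed the limma test. In bulk liver more cells of a type and more RNA per cell cannot be told apart. Of 16 macrophage markers 12 rose (median log2 fold change 1.53), MKO livers lay above control livers for 15, and their summed level was 17131 to 25419 in MKO livers, against 4713 to 11158 in control livers. The smallest p-values belonged to Laptm5 (log2 fold change 1.52), Cybb (1.78), Csf1r (1.75) and Cd68 (1.28). The number that rose was 3 without MKO 2 or without MKO 3, 4 without control 2 and 10 to 15 without any other library. Of 12 conventional dendritic cell markers 3 rose, Batf3 (2.75), Wdfy4 (1.78) and Clec9a (1.29), all needed by or typical of cross-presenting dendritic cells, and these calls held without any single library (median of the list 0.71, 9 of 12 positive, sum 6581 to 8720 in MKO and 6190 to 8579 in control livers). In the nuclei described below, these 3 genes were also enriched in the macrophage-like and dividing-cell-like clusters, among others, so they did not mark 1 cell type there. Of 9 B cell markers 0 rose with limma or edgeR and 2 with DESeq2 (2 at an unadjusted limma p under 0.05), with 9 of 9 positive (median 0.52), MKO livers above control livers for 3 and a sum of 259 to 470 in MKO livers, against 128 to 253 in control livers; Cd79b, part of the B cell receptor, had 1.64 (limma adjusted p = 0.124). No marker in these lists was at 0 in all libraries. The part of these markers in the class II result was not tested.

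The other marker lists were as follows. Of 12 T and NK cell markers 2 rose, Il2rb (1.29) and Cd3e (1.40), with a median of 1.14. Of 6 plasma cell markers 1 fell, Igha (-1.81, limma adjusted p = 0.022; median -1.04), and of 5 neutrophil markers 1 rose, Csf3r (1.03; median 0.42). Among endothelial markers Mrc1, which macrophages also express, rose in the sinusoidal list of 9 (1.14; median 0.21) and Pecam1 in the vascular list of 8 (0.97; median 0.51). These 6 calls were each lost without MKO 2 and without control 2. None passed the limma test among the plasmacytoid dendritic cell markers (5 tested, median 0.11, highest count Bst2), where 1 had an unadjusted p under 0.05 and DESeq2 called 1. The same was 0 of 9 stellate markers (median 0.28, Dcn), 0 of 8 bile duct markers (-0.22, Spp1), 0 of 9 hepatocyte markers (-0.13, Alb), 0 of 8 dividing cell markers (0.23, Mki67) and 0 of 4 mesothelial markers (0.02, Gpm6a), with 1 bile duct marker at an unadjusted limma p under 0.05, none in the other 4 lists, and 0 called by edgeR or DESeq2.

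The nuclei place the class II transcripts in cell types. Values are the authors' averages per cluster, each column of which sums to 10000, so a level is a share of the RNA of that cluster's nuclei. With 1 pool per genotype no test was possible, and the sources used here give neither the number of nuclei per cluster nor their depth. From fixed markers, cluster 2 was macrophage-like (16 of 16 macrophage markers enriched), cluster 8 B cell-like (11 of 11, and 6 of 7 plasma cell markers), cluster 11 plasmacytoid dendritic cell-like (7 of 8) and cluster 10 dividing-cell-like (8 of 8, led by Top2a and Kif11). Cluster 10 also had all 16 macrophage markers enriched, with 8 of 9 sinusoidal endothelial, 6 of 8 vascular endothelial and 10 of 13 T and NK cell markers. Of 13 conventional dendritic cell markers, 7 were enriched in cluster 2, 5 in cluster 8, 8 in cluster 10 and 6 each in clusters 4 and 11. No cluster was named for these cells, and their part in the class II levels was not tested. Cluster 2 also had 5 of 6 neutrophil markers enriched. The treatment of doublets was not given in the sources used, and they cannot be sought in averages. Clusters 0, 1 and 3 were hepatocyte-like, 4 sinusoidal endothelial-like, 5 stellate-like, 6 bile duct-like, 7 T and NK cell-like, 9 vascular endothelial-like and 12 mesothelial-like.

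In both pools every class II gene and Ciita was highest in the B cell-like nuclei. There the MKO pool had 13.2 for H2-Aa, 9.99 for H2-Ab1, 10.9 for H2-Eb1 and 33.0 for Cd74, and the control pool had 9.20 for H2-Aa, 6.72 for H2-Ab1, 6.38 for H2-Eb1 and 18.8 for Cd74. Next came the macrophage-like, dividing-cell-like and plasmacytoid dendritic cell-like nuclei, with H2-Aa between 2.58 and 6.48. All other clusters were at or below 1.62 for every class II gene. The 10 genes summed to 78.8 in B cell-like, 22.9 in macrophage-like, 18.2 in dividing-cell-like and 31.2 in plasmacytoid dendritic cell-like nuclei of the MKO pool. In the control pool they summed to 53.1 in B cell-like, 22.6 in macrophage-like, 16.7 in dividing-cell-like and 13.8 in plasmacytoid dendritic cell-like nuclei.

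**Figure D3:**
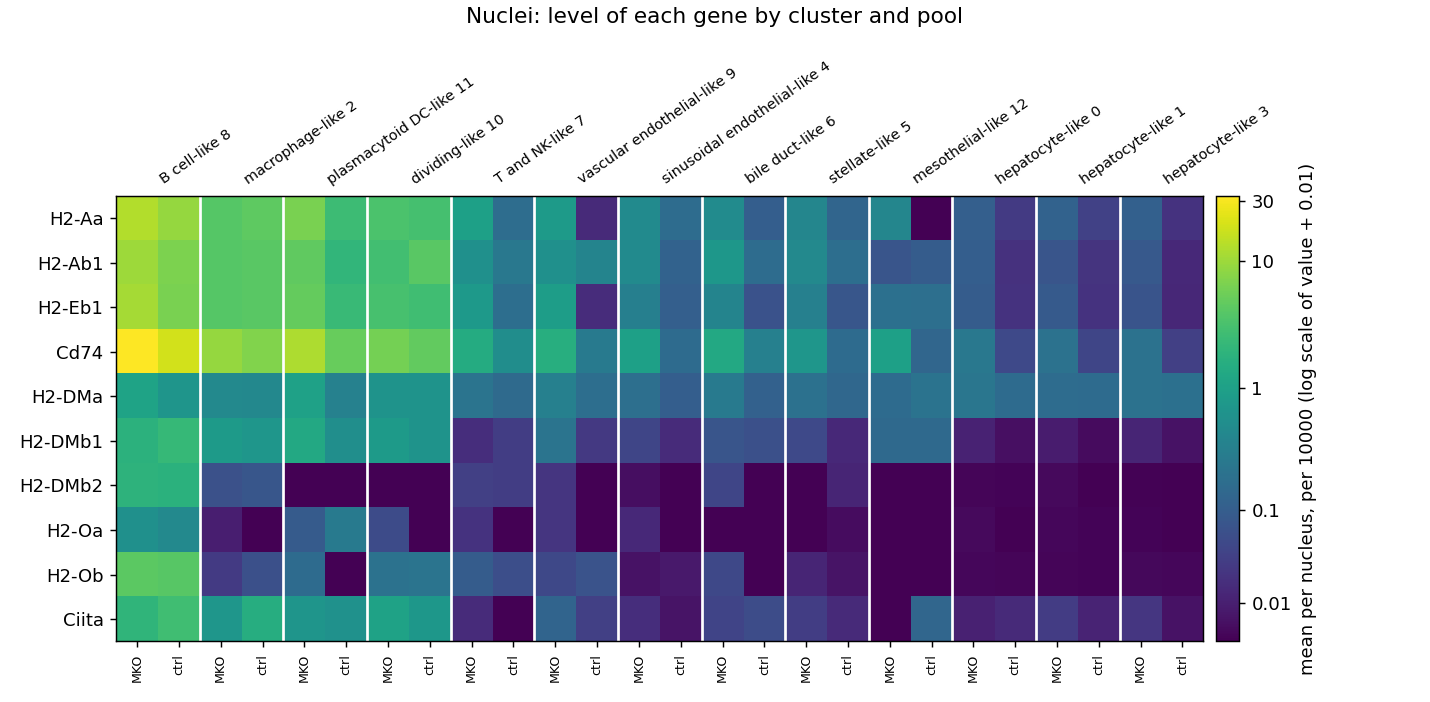
Mean level per nucleus (per 10000, colour on a log scale of the value plus 0.01) of each gene in the 13 clusters, with the MKO pool to the left of the control pool in each. H2-Aa, H2-Ab1, H2-Eb1 and Cd74 are bright in 4 clusters, and H2-DMb2, H2-Oa and H2-Ob are brightest in the B cell-like cluster.

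The 3 class II genes that did not pass the test in bulk liver were, like all 10 genes, highest in B cell-like nuclei, and they were low in macrophage-like nuclei. They also had the fewest bulk reads of the 10 genes (6 to 47 per library). The part of cell type or of low counts in their bulk result was not tested. H2-DMb2 stood at 1.86 in the MKO pool and 1.76 in the control pool in B cell-like nuclei. Macrophage-like nuclei had 0.06 in the MKO pool and 0.08 in the control pool, and clusters 10 and 11 had 0 in both pools. H2-Ob stood at 4.32 in the MKO pool and 4.05 in the control pool in B cell-like nuclei, and at 0.03 in the MKO pool and 0.06 in the control pool in macrophage-like nuclei. H2-Oa stood at 0.58 in the MKO pool and 0.44 in the control pool in B cell-like nuclei, and at 0.01 in the MKO pool and 0 in the control pool in macrophage-like nuclei. Plasmacytoid dendritic cell-like nuclei had 0.093 for H2-Oa in the MKO pool and 0.264 in the control pool, and 0.160 for H2-Ob in the MKO pool and 0 in the control pool. All 3 were thus far lower in macrophage-like than in B cell-like nuclei of the same pool.

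H2-DMb1, the other DM beta gene, was at 1.84 in the MKO pool and 2.29 in the control pool in B cell-like nuclei, and still at 0.81 in the MKO pool and 0.69 in the control pool in macrophage-like nuclei. H2-DMb1 over H2-DMb2 was 0.990 in the MKO pool and 1.3 in the control pool in B cell-like nuclei, and 12.7 in the MKO pool and 9 in the control pool in macrophage-like nuclei. The DM beta genes thus stood in different proportions in these 2 kinds of nuclei in both pools. H2-DMa was low in all clusters, highest at 1.07 in the MKO pool and 0.68 in the control pool in B cell-like nuclei, and did not drop below 0.10 in any cluster or pool.

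Within macrophage-like nuclei the classical chains were at similar levels in the pools, and Ciita was lower in the MKO pool. The MKO pool had 3.85 for H2-Aa, 3.88 for H2-Ab1, 3.89 for H2-Eb1 and 9.20 for Cd74, and the control pool had 4.41 for H2-Aa, 4.14 for H2-Ab1, 4.12 for H2-Eb1 and 7.13 for Cd74. The log2 ratios, given where a gene's larger value reached the 90th percentile of its cluster, were -0.19 for H2-Aa, -0.09 for H2-Ab1, -0.08 for H2-Eb1 and 0.36 for Cd74. Ciita was at 0.690 in the MKO pool and 1.55 in the control pool, a log2 ratio of -1.02, or -0.91 with a doubled pseudocount. Only its control value reached the cluster's 90th percentile (1.44), so it was given a ratio through the pool where it was higher. Of the 5 genes with a ratio there, 0 were 2-fold higher and 1, Ciita, was 2-fold lower, in a cluster where 5.04% of genes were 2-fold higher and 4.72% 2-fold lower. Ciita over H2-Aa was 0.179 in the MKO pool and 0.352 in the control pool, and Cd74 over H2-Aa was 2.39 in the MKO pool and 1.62 in the control pool. The summed macrophage markers of these nuclei were 87.5 in the MKO pool and 68.7 in the control pool, their vascular endothelial markers 25.8 in the MKO pool and 12.5 in the control pool, their hepatocyte markers 76.6 in the MKO pool and 53.5 in the control pool, and 18439 genes were above 0 in the MKO pool and 16533 in the control pool.

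Plasmacytoid dendritic cell-like nuclei had more class II RNA in the MKO pool. The MKO pool had 6.48 for H2-Aa, 4.49 for H2-Ab1, 4.87 for H2-Eb1 and 12.1 for Cd74, and the control pool had 2.58 for H2-Aa, 2.07 for H2-Ab1, 2.43 for H2-Eb1 and 4.97 for Cd74. The log2 ratios were 1.26 for H2-Aa, 1.05 for H2-Ab1, 0.94 for H2-Eb1 and 1.25 for Cd74, so 3 of 4 passed 2-fold in a cluster where 5.19% of genes were 2-fold higher and 5.76% lower. With a doubled pseudocount H2-Ab1 was at 0.98. Ciita itself was 0.68 in the MKO pool and 0.59 in the control pool. Both values lay below the level at which a ratio was given in this cluster (2.05), so its change there is not known.

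Beside these ratios, the summed plasmacytoid markers of the cluster were 178 in the MKO pool and 230.5 in the control pool. Macrophage markers summed to 12.6 in the MKO pool and 7.76 in the control pool. Most of that was Cybb (7.32 in the MKO pool, 5.91 in control) and Laptm5 (2.36 in MKO, 1.19 in control), both enriched in this cluster. Of the 16 markers 12 were higher in the MKO pool, Cd163, Fcgr1 and Vsig4 were lower, and Timd4 was at 0 in both. Their median was 3.51% of the macrophage-like level of the same pool in MKO and 0% in control. B cell markers summed to 1.71 in the MKO pool and 1.87 in the control pool, and conventional dendritic cell markers to 20.5 in the MKO pool and 19.2 in the control pool. Sinusoidal endothelial markers summed to 4.51 in the MKO pool and 1.09 in the control pool, vascular endothelial markers to 6.55 in the MKO pool and 3.01 in the control pool, and hepatocyte markers to 92.4 in the MKO pool and 62.6 in the control pool. The cluster had 11229 genes above 0 in the MKO pool and 9527 in the control pool, fewer than clusters 2, 8 and 10 in the same pool. The part of any of these in the ratios was not tested.

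In B cell-like nuclei 8 genes had a ratio and 0 passed 2-fold, where 1.68% of genes were 2-fold higher and 2.1% lower. The log2 ratios were 0.51 for H2-Aa, 0.56 for H2-Ab1, 0.76 for H2-Eb1 and 0.81 for Cd74, but -0.29 for H2-DMb1, -0.43 for Ciita, 0.07 for H2-DMb2 and 0.09 for H2-Ob. Ciita was 2.02 in the MKO pool and 2.78 in the control pool, and Ciita over H2-Aa was 0.154 in the MKO pool and 0.302 in the control pool. The summed B cell markers were 152 in the MKO pool and 163 in the control pool, and the hepatocyte markers 135 in the MKO pool and 95.03 in the control pool. In dividing-cell-like nuclei 4 genes had a ratio, between -0.51 for H2-Ab1 and 0.37 for Cd74, and 0 passed 2-fold, against 11.1% of genes higher and 10.9% lower. The macrophage markers of that cluster summed to 56.6 in the MKO pool and 22.2 in the control pool, its sinusoidal endothelial markers to 14.1 in the MKO pool and 36.3 in the control pool, and its hepatocyte markers to 61.0 in the MKO pool and 33.8 in the control pool; their part in the ratios was not tested.

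**Figure D4:**
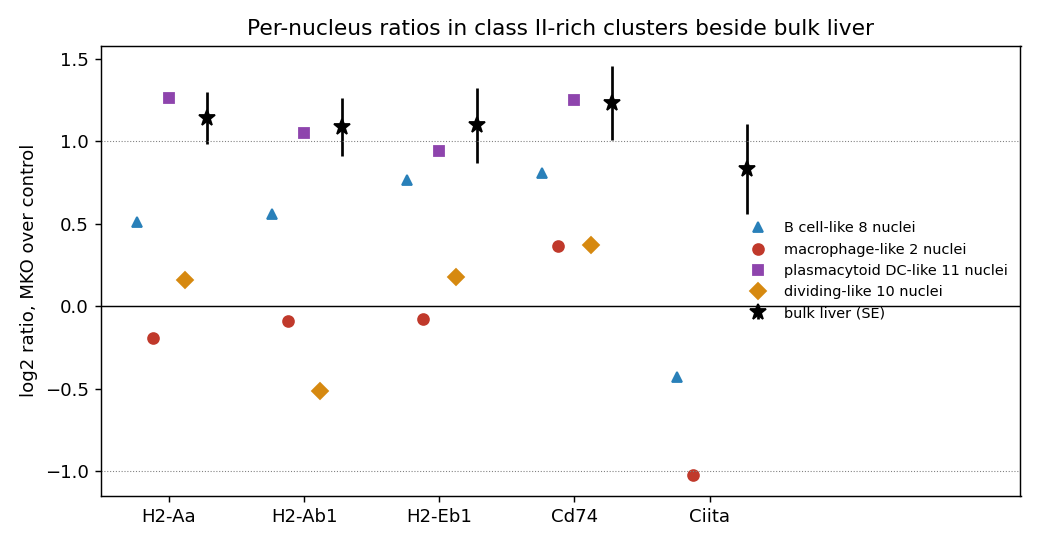
Log2 ratio, MKO over control, of the classical chains, Cd74 and Ciita in the 4 clusters where class II is highest (1 pool per genotype, no error bar) beside the bulk log2 fold change with its SE (black stars, n = 3 each); dotted lines mark 2-fold. The classical chains lie near 0 in macrophage-like nuclei and near the bulk value in plasmacytoid dendritic cell-like nuclei, and Ciita is at -1.02 in macrophage-like nuclei and 0.83 in bulk liver. In macrophage-like nuclei only the control value of Ciita reached the threshold for a ratio.

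Outside these 4 clusters class II transcripts were low, and most values were higher in the MKO pool. Over the 10 genes and the other 9 clusters, 76 of 90 values were higher in the MKO pool, 10 were lower and 4 were 0 in both pools. H2-Aa, H2-Eb1 and Cd74 were higher in all 9, and those lower in some were Ciita (3 clusters), H2-Ob (2) and, in 1 each, H2-Ab1, H2-DMa, H2-DMb1, H2-DMb2 and H2-Oa. H2-Aa stood at 0.11 to 0.12 in the MKO pool in the hepatocyte-like clusters 0, 1 and 3, against 0.02 to 0.04 in the control pool. The median level of H2-Aa, H2-Ab1, H2-Eb1 and Cd74, as a percentage of the macrophage-like level of the same pool, was 2.68 in the MKO pool and 0.608 in the control pool in cluster 0. It was 11.5 in the MKO pool and 2.71 in the control pool in sinusoidal endothelial-like nuclei, 18.2 in the MKO pool and 5.18 in the control pool in T and NK cell-like nuclei, and 19.3 in the MKO pool and 2.08 in the control pool in vascular endothelial-like nuclei. All 4 genes were higher in the MKO pool in clusters 0, 1, 3, 4, 5, 6, 7 and 9, and 3 of 4 in cluster 12. Over the 13 clusters 46.8% to 58.3% of all genes above 0 were higher in the MKO pool. Macrophage markers were mostly higher in the MKO pool as well, in 9 to 16 of 16: 15 in cluster 0 (median 0.947% of the macrophage-like level in the MKO pool and 0.258% in the control pool), 16 in sinusoidal endothelial-like nuclei (2.78% in the MKO pool and 0.741% in the control pool), 11 in vascular endothelial-like nuclei (2.58% in the MKO pool and 0.883% in the control pool), 11 in bile duct-like nuclei (3.05% in the MKO pool and 1.10% in the control pool) and 9 in mesothelial-like nuclei (0.838% in the MKO pool and 0% in the control pool). The part of macrophage RNA in these low levels was not tested.

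**Figure D5:**
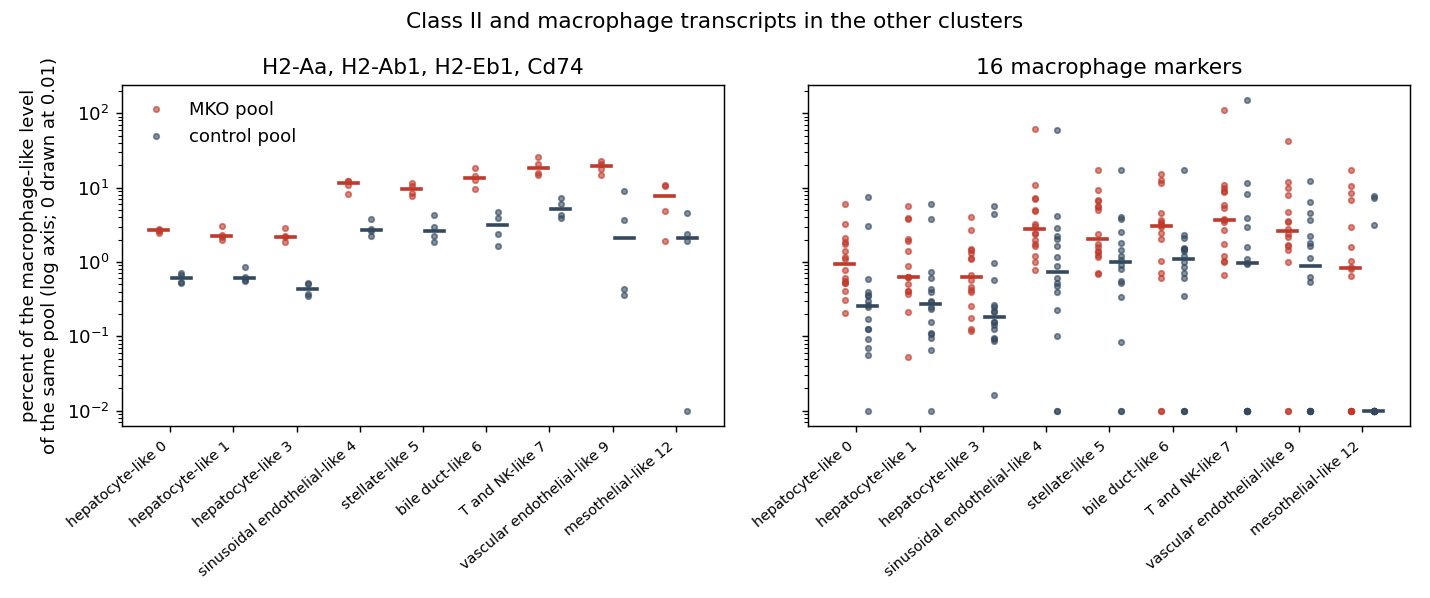
Level in the clusters outside the 4 that are rich in class II, as a percentage of the macrophage-like level of the same pool (log axis, 0 drawn at 0.01), with the MKO pool to the left of the control pool; points are genes and bars medians. The medians of the 4 class II genes and of the 16 macrophage markers are higher in the MKO pool in each cluster drawn, while single genes, such as H2-Ab1 in cluster 12 and Csf1r in clusters 6 and 12, are lower in it.

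Companion genes in macrophage-like nuclei differed from bulk liver in some respects. Ctss was level, at 7.91 in the MKO pool and 7.87 in the control pool, while Lgmn, an asparaginyl endopeptidase of the same endosomes, was 5.60 in the MKO pool and 10.5 in the control pool (log2 ratio -0.89) and Ctsb, a cathepsin, 7.81 in the MKO pool and 9.71 in the control pool. Cd83, which rose in bulk liver, was 1.11 in the MKO pool and 2.45 in the control pool (-1.05), and Cd86 was 2.99 in the MKO pool and 4.84 in the control pool (-0.67). March1, the older symbol of Marchf1, was 7.35 in the MKO pool and 5.97 in the control pool, and Cd9, a tetraspanin, 0.409 in the MKO pool and 1.19 in the control pool. So the turnover genes did not share a direction in these nuclei. Cd274 was 3.13 in the MKO pool and 1.49 in the control pool (log2 ratio 1.0) and Pdcd1lg2 1.89 in the MKO pool and 0.166 in the control pool (2.71), both higher as in bulk liver. Spi1 was 5.33 in the MKO pool and 3.62 in the control pool (0.54), and Rfx5 0.0796 in the MKO pool and 0.0929 in the control pool.

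Of 15 class I genes, 11 were higher in the MKO pool in macrophage-like and B cell-like nuclei, 9 in dividing-cell-like nuclei and 12 in plasmacytoid dendritic cell-like nuclei. Of all genes above 0, 51.9% were higher in the MKO pool in macrophage-like nuclei and 49.0% in B cell-like nuclei. The share was 52.9% in dividing-cell-like nuclei, not far from the class I count there, and 54.7% in plasmacytoid dendritic cell-like nuclei. H2-D1, a class I heavy chain, was 7.89 in the MKO pool and 3.42 in the control pool in macrophage-like nuclei (log2 ratio 1.17), and its log2 ratio was 1.05 in B cell-like, 1.31 in dividing-cell-like and 1.49 in plasmacytoid dendritic cell-like nuclei. H2-K1, another heavy chain, had log2 ratios of 0.60 in macrophage-like, 0.57 in B cell-like, 0.33 in dividing-cell-like and 0.45 in plasmacytoid dendritic cell-like nuclei. B2m, the shared light chain, had 0.61, 0.63, 0.42 and 0.80 in these 4 clusters in that order. In bulk liver H2-D1 and H2-K1 were above all control livers in every MKO liver, but neither passed the test (limma adjusted p = 0.334 for H2-D1 and 0.520 for H2-K1).

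Other companions also had high levels in these clusters. Irf8 was highest in plasmacytoid dendritic cell-like nuclei, at 16.5 in the MKO pool and 20.7 in the control pool. In B cell-like nuclei March1 was at 13.1 in the MKO pool and 11.9 in the control pool, Irf2, an interferon-regulatory factor, at 7.15 in the MKO pool and 7.17 in the control pool, Jak1, a kinase of the interferon receptors, at 4.89 in the MKO pool and 6.61 in the control pool, and Cd40, a co-stimulatory receptor, at 2.06 in the MKO pool and 1.60 in the control pool. Among coactivators in macrophage-like nuclei, the MKO pool had 6.49 for Ncoa1, 3.48 for Crebbp and 3.47 for Ncoa3, and the control pool had 3.83 for Ncoa1, 4.04 for Crebbp and 4.19 for Ncoa3. Of the neighbours in the class II region, Brd2 reached 0.901 in the MKO pool and 2.14 in the control pool in plasmacytoid dendritic cell-like nuclei, Psmb9, an immunoproteasome subunit, 0.976 in the MKO pool and 1.58 in the control pool in dividing-cell-like nuclei, and Tap1, a peptide transporter, 1.14 in the MKO pool and 0.573 in the control pool in B cell-like nuclei.

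The genes whose pattern over the 26 columns of clusters and pools was most like that of H2-Aa, among 6755 genes with a column of at least 1, were Ctss (Pearson r = 0.958), Btk (0.924), Fgd2 (0.913), Syk (0.913), Cybb (0.912) and March1 (0.910). Of the class II genes Cd74 and H2-Eb1 had 0.984 each, H2-Ab1 0.959, H2-DMb1 0.924, Ciita 0.894, H2-DMa 0.893, H2-Ob 0.702 and H2-DMb2 0.604, while H2-Oa was below 1 in every column. Those most like Ciita were Btk (0.969), March1 (0.964), Wdfy4 (0.948), Fgd2 (0.944), Ly86 (0.936) and Syk (0.928), and H2-DMb1 had 0.963. These are descriptions with no test, over columns that share 2 pools and whose numbers of nuclei are not given.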

How the data were processed

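The members and gene lists were chosen with earlier results of these data known. STAR, RSEM 1.3.3, DESeq2, Cell Ranger, Seurat 4.0.1 and the mm10 build are named in the notes on processing that the submitters gave, without roles or settings. The authors deposited the bulk values as a signal: counts per gene over a size factor for each library. Dividing by what 1 read is worth (0.963 to 1.22) gave whole reads for 100% of values within 0.01. The authors also deposited their own log2 fold changes and p-values for the bulk livers. For the nuclei the authors deposited a signal as well, the average of each gene by cluster and pool.

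Genes with a mean of at least 1 (15249, with 34 left out) were fitted on log2(value + 1) in limma-trend (limma 3.58.1 in R 4.3.3), genotype being the single term; the added 1 understates changes of low genes. The limma fit was tested on simulated data. Alternatives were edgeR 4.0.16 and DESeq2 1.42.0 on the recovered reads, other scalings, pseudocounts and filters, a replicate block, and each library left out. Beyond replicate numbers the labels do not state separate animals, so a p-value reflects only the spread between these samples. Within each genotype no library was a duplicate of another (chi-square over degrees of freedom 29.7 to 77.0). Pairs across genotypes were not compared. Few reads (6 to 16 for H2-Oa) and n = 3 both limit precision; their shares were not separated.

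In the nuclei, ratios used a pseudocount of 0.1 of the cluster's 90th percentile (0.144 in cluster 2), and a change past 2-fold counted as called. Clusters were named from markers at least 2-fold over the median of the other clusters in both pools. Likeness was Pearson's r of log2(value + 0.1). Gene coordinates and transcripts are from GENCODE on mm10 (GRCm38), promoters from RefSeq (GRCm38.p6). Named genes were all 10 members, Tgfbr1, per list up to 4 called genes with the smallest p (else the one with the highest mean), up to 3 highest genes per list in the nuclei and the 6 most similar genes; marker lists in the nuclei are given as sums. Rfx5, Nfya, Rfxap, Irf1, Irf8, Cd80, Cd86, Cd79b, H2-D1 and H2-K1 in bulk, and Pdcd1lg2, Spi1 and Rfx5 in nuclei, were added after their values were seen.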

Additional observations from a re-analysis of the deposited data

Results flagged for a closer look

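In the nuclei, H2-Aa (log2 ratio 1.26) and H2-Ab1 (1.05) were higher in the MKO pool in plasmacytoid dendritic cell-like cluster 11 and lower in at least 1 other cluster: both were slightly lower in the macrophage-like cluster, and H2-Ab1 was lower in the dividing-cell-like cluster. Ciita was lower in the MKO pool in macrophage-like nuclei (log2 ratio -1.02), while every bulk MKO liver was above every control liver. With 1 pool per genotype, none of these differences was tested.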

How the results depend on the processing

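Of 10 class II genes, 6 rose under limma, edgeR, DESeq2, TMM scaling, both pseudocounts, both filters and a replicate block, and 4 under quantile normalisation. Leaving out 1 library gave 1 to 5: 3 without control 1 or control 2, 1 without control 3, 5 without MKO 1, 2 without MKO 2 and 1 without MKO 3. The companion count of 9 was 17 with DESeq2 and 1 to 10 with 1 library left out. Same-numbered samples had correlations of 0.06, -0.03 and -0.11 in their deviations, within the -0.11 to 0.15 of differently numbered samples. So few weak correlations cannot show whether the libraries were paired, and the labels do not say. With the replicate block 6 class II genes and 8 companions rose, Tgfbr1 stayed at -0.13 and Ciita had a limma adjusted p of 0.115. Signs that reversed, none of a called value, were those of H2-DMb2 (-0.040 with quantile normalisation, -0.11 to 0.46 with 1 library left out), Tgfbr1 (-0.27 to 0.035 with 1 library left out) and 4 ratios with 1 library left out, H2-Eb1 over H2-Aa (-0.14 to 0.056), H2-DMb1 over H2-DMa (-0.014 to 0.24), H2-Ob over H2-Oa (-0.22 to 0.47) and H2-DMa over H2-Aa (-0.077 to 0.064). In the nuclei 4 of 21 ratios passed 2-fold, and 2 did with a doubled pseudocount. The count was 11 of 30 when genes down to the 80th percentile were included, and 3 of 16 with the 95th percentile as the threshold. Of the 6 genes most like H2-Aa, 3 were kept with a pseudocount of 0.02 and 1 with MKO columns only. Promoters of 5 genes matched when the first 5 letters of the X core sufficed, against 3. Apart from the wider gene range and the shorter motif, the cause was not tested. Nucleus values have no depth, replicate or interval.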
